A study of Mus musculus with 14 samples.

Results

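The libraries labelled as floxed controls were compared between the telencephalon at E12.5 and the cerebral cortex at E18.5 (E, embryonic day) in the mouse. They were 7 of the 14 libraries of a study that crossed mice with floxed Sbno1 and floxed Trp53 to the Emx1-Cre driver: 3 libraries at E12.5 (numbers 4, 7 and 9) and 4 at E18.5 (numbers 7, 8, 17 and 18). These libraries were taken by their label, as the table columns marked dfl, and each stage had its own deposited table. The sample labels call these groups ff, which does not say whether any control carried the Cre driver, how many embryos went into a library, or what the strain, sex or litter was. The descriptions of 11 of the 14 samples name a library of another group than the title does, so table columns were assigned to groups and not to single samples. The labels do not spell out ff and dfl, which are taken here as the floxed controls of that cross at both stages, floxed at Sbno1, a homologue of the fly gene strawberry notch, and at Trp53, the gene of the transcription factor p53. Stage, dissected region and table change together here, so a difference between the groups cannot be told apart as one of age, of region or of table. Polyadenylated RNA was sequenced with a strand-marking kit. A level is a TMM-scaled count per 1000000 counts (CPM) unless it is given as transcripts per 1000000 (TPM), a log2 fold change is E18.5 minus E12.5 with its standard error, and a gene rose or fell when the adjusted p of edgeR's quasi-likelihood test was under 0.05.

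As background, the early telencephalon is a sheet of dividing neuroepithelial cells and radial glia, which line the ventricle and give rise to neurons either directly or through intermediate progenitors. Deep-layer cortical neurons are born first and upper-layer neurons later, interneurons enter the cortex from the ventral telencephalon, and astrocytes and oligodendrocyte precursors follow near birth. In the same period young neurons extend axons, begin to make synapses and acquire ion channels and transmitter receptors.

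Total expected counts, in units of 1000000, were 51.4 to 82.0 in 6 libraries and 4.92 in E12.5 library 9, where 3 counts are worth 0.610 CPM against 0.0366 to 0.0583 CPM in the others. The first principal component (68.2% of the variance of log CPM) separated the stages, and the second (20.1%) separated E12.5 library 9 from the rest. Correlations of log CPM within a stage were 0.945 to 0.947 for pairs with library 9 and 0.987 to 0.992 for all other pairs. No pair agreed within sampling noise. By Xist and chromosome Y genes, both sexes were present at both stages. Nothing says that the libraries came from separate animals, so p-values measure the spread between these libraries.

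The whole-gene count of Sbno1, per 1000000 of the library total, was 93.5 to 112 in the E12.5 controls and 68.4 to 71.8 in the E18.5 controls. In the libraries labelled double knockout it was 66.6 to 76.8 at E12.5, below the controls, and 69.5 to 80.1 at E18.5, overlapping them. Emx1, the driver locus, was 57.2 to 65.3 in the E12.5 controls against 31.1 to 34.2 in those libraries, and 24.3 to 26.8 against 14.5 to 16.9 at E18.5. Trp53, the other floxed gene, overlapped between controls and those libraries at both stages (104 to 133 against 103 to 109 at E12.5, and 69.2 to 75.9 against 61.0 to 75.3 at E18.5). The E18.5 groups are therefore separated by Emx1 and not by Sbno1 or Trp53, and the control groups rest on the column names. A whole-gene count can include exons outside the deleted part.

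Markers of the labelled tissue were present at both stages. Neurod6, a marker of dorsal neurons, was at 152.5, 116.8 and 171.2 CPM in E12.5 libraries 4, 7 and 9 and at 466.1, 483.3, 488.3 and 469.7 CPM in E18.5 libraries 7, 8, 17 and 18, the order used throughout. Emx1 of dorsal progenitors went from 60.4 ± 2.77 CPM (SD, n = 3) to 25.7 ± 1.23 CPM (n = 4), and the neuronal marker Stmn2 from 427.4 ± 33.5 CPM (SD, n = 3) to 1399 ± 84 CPM (n = 4). Of the radial glial markers, Fabp7, a brain fatty acid binding protein, went from 331.8 ± 23.1 CPM (SD, n = 3) to 535.7 ± 43.5 CPM (n = 4), while Pax6 and Sox2 went the other way, as described further on.

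The E12.5 libraries also held RNA of regions outside the cortex. All 15 of 15 diencephalon genes fell, and their summed level was 264 to 486 TPM at E12.5 against 14 to 20.9 TPM at E18.5. Tcf7l2, a Wnt effector that marks the thalamus, was at 315.5, 163.3 and 201.9 CPM and then at 8.22, 9.43, 7.56 and 5.65 CPM, so that the stages stood far apart and E12.5 library 4 was highest. Gbx2 of the thalamus and Lhx9 of the thalamus and medial pallium were 22.8-fold and 7.77-fold lower at E18.5. No member of the 8 lists of other regions and cell types was at 0 in all libraries of a stage. The part of this regional difference in the falls given below was not tested. In bulk RNA, fewer cells of a type and less RNA per cell cannot be told apart.

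**Figure D1:**
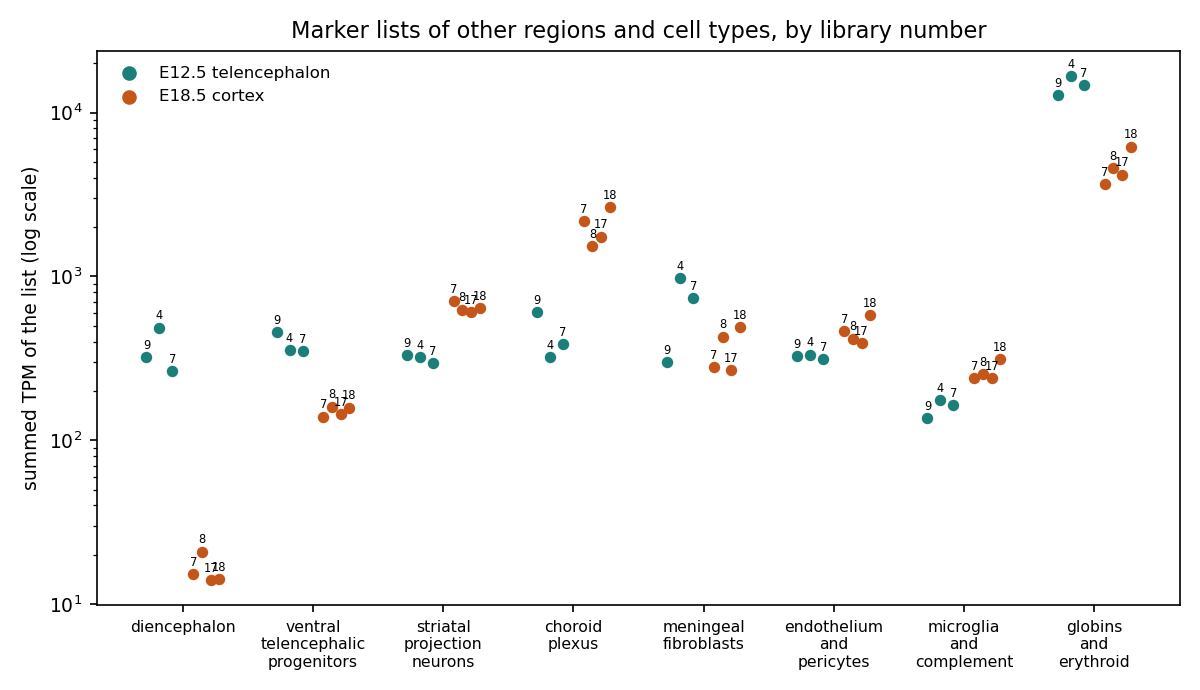
Summed TPM of 8 marker lists of other regions and cell types in each control library (log scale, points labelled with the library number, E12.5 in teal and E18.5 in orange). The diencephalon sum lies between 264 and 486 TPM in the E12.5 libraries and between 14 and 20.9 TPM in the E18.5 libraries, while the meningeal sums of the stages overlap.

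Of 18307 genes tested, 5629 (30.7%) rose and 5597 (30.6%) fell. At least 2-fold changes among these calls were 2777 upward (15.2%) and 1999 downward (10.9%). The median log2 fold change of all genes was -0.02. TMM scaling brings this centre near no change by construction, so the median does not show that the scale is right. The stages did not overlap for 10522 of the 11226 called genes and for 11324 of all 18307 tested. These shares are the background for the list counts that follow: a list in which about 3 in 10 members rose and as many fell does not stand out from all genes. The lists were chosen with earlier results of these data known, so their counts are descriptions and not independent tests.

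**Figure D2:**
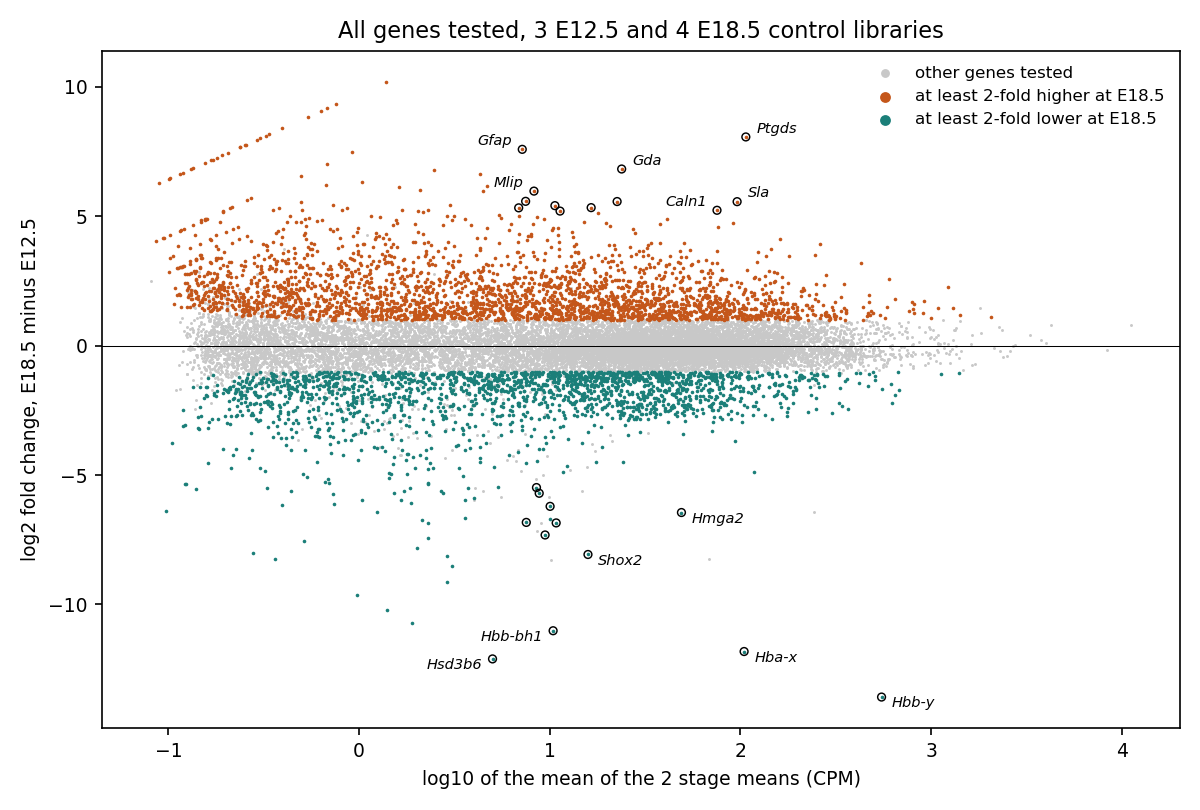
Log2 fold change (E18.5 minus E12.5) of every gene tested against the log10 of its mean level in CPM. Circles mark the 12 most raised and 12 most lowered genes of the naming rule, of which 12 are labelled, and the straight lines of points at the upper left are genes with 0 counts in E12.5 libraries, whose fold change depends on the prior count.

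Among genes whose higher stage averaged 10 CPM or more, the 3 most raised were Ptgds, Gfap and Gda. Ptgds, prostaglandin D synthase of the leptomeninges and choroid plexus, was at 1.06, 0.501 and 0.586 CPM at E12.5 and at 210.1, 181.8, 214.7 and 245.1 CPM at E18.5. That is 298.1-fold higher (log2 fold change 8.07 ± 0.24, 8.70 without E12.5 library 4, edgeR adjusted p = 1.7e-08). Gfap, the intermediate filament of astrocytes, was at 0.074, 0.077 and 0 CPM and then at 17.5, 10.6, 16.4 and 12.8 CPM, 283.6-fold higher on few E12.5 counts. Gda, guanine deaminase, which is enriched in forebrain neurons, went from 0.461, 0.231 and 1.37 CPM to 49.8, 49.5, 46.6 and 42.1 CPM. In all 3 every E12.5 library was under 2 CPM and every E18.5 library over 10 CPM. Others were the neuronal surface glycoprotein Thy1 (54.7-fold, log2 fold change 5.57 and 6.54 without E12.5 library 4), the adaptor Sla (45.5-fold), the dendritic protein Ddn (44.1-fold), the calcium-binding Caln1 (34.4-fold), the glial adhesion molecule Hepacam (34.6-fold), and Mlip (91-fold), Pla2g4e (62.5-fold) and Rasal1 (56.8-fold). For Pla2g4e and Hepacam the log2 fold changes of 5.41 and 5.20 were 7.05 and 5.84 without E12.5 library 4.

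The 3 most lowered genes were Hbb-y, Hsd3b6 and Hba-x. Hbb-y, the embryonic beta-type globin, was at 1098, 1314 and 887.7 CPM at E12.5 and at 0.017, 0.162, 0.018 and 0.128 CPM at E18.5. Hsd3b6, a steroid dehydrogenase, was at 10.8, 13.5 and 5.86 CPM and had 0 counts in all 4 E18.5 libraries. Against a limit of 3 counts over the E18.5 group it was at least 834.7-fold lower. The third, Hba-x, the embryonic alpha-type globin, was at 201.2, 272.4 and 153.8 CPM and then at 0.051, 0.075, 0.018 and 0.073 CPM, 3867-fold lower. Next came Hbb-bh1, an embryonic beta-type globin at 12.5 to 34.4 CPM at E12.5 that had counts at E18.5 in library 8 alone. Shox2 (278-fold), Dbx1 (117.3-fold), Olig3 (74.2-fold), Tal2 (51.9-fold) and Irx3 (44.4-fold) are transcription factors with expression in the diencephalon among other sites. Irx3 is itself a member of the diencephalon list, and the part of region in these falls was not tested. Neurog1 was 166.1-fold lower, Hmga2 87-fold lower, and Fndc3c1, an X-linked gene, 110-fold lower (log2 fold change -6.83 and -7.45 without E18.5 library 18).

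**Figure D3:**
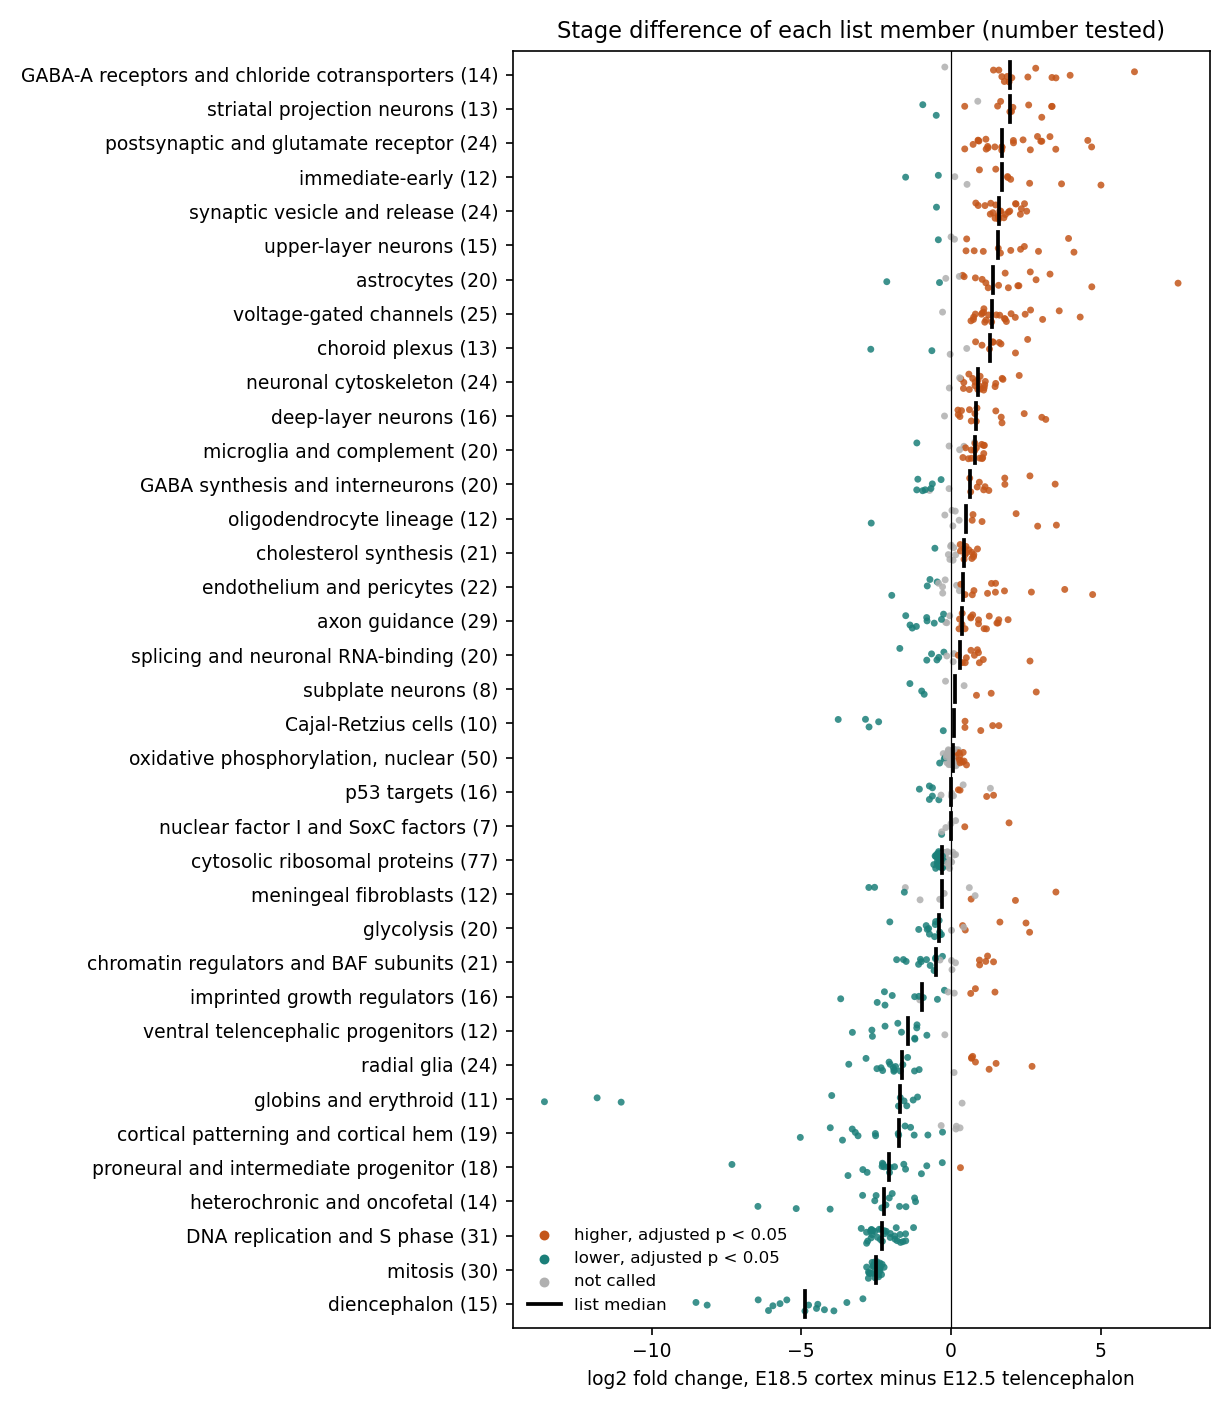
Log2 fold change of each tested member of 37 gene lists, ordered by the list median (black bar), with the number tested in brackets and colour showing whether a member rose (orange), fell (teal) or was not called (grey). Members of the cell cycle lists lie between -3.0 and -1.25, all to the left of 0, and the postsynaptic members between 0.46 and 4.70, all to the right.

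Cell cycle genes fell without exception. All 31 of 31 genes of DNA replication and S phase and 30 of 30 mitosis genes fell at least 2-fold, against 10.9% of all genes, with median log2 fold changes of -2.29 and -2.49 and stages that did not overlap for any of them. The mitosis list was narrow: its members ranged from -2.81 for Ube2c, a ubiquitin-conjugating enzyme of the anaphase-promoting complex, to -2.23 for Cdk1, the mitotic kinase. S-phase genes ranged from -3.0 for Orc1, of the origin recognition complex, to -1.25 for Prim1, the primase subunit.

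The base sequence before the start of these genes is shown because the 2 lists moved as blocks, and because cell cycle promoters are known to share short elements. Searched on both strands in the 250 bases before the start were the CHR element TTTGAA, the CCAAT box CCAAT and the E2F forms TTTCCCGC, TTTGGCGC, TTTCGCGC and TTTGGCGG. RefSeq promoters (GRCm38.p6) were matched by symbol for 26 of 31 S-phase genes and 25 of 30 mitosis genes. Stretches of 110 bases ending at the base before the start are printed 5′ to 3′ on the gene's strand for the lowest S-phase gene, for Mcm6, the S-phase gene with most E2F matches, and for both ends of the mitosis list. Capitals mark every match of a searched motif, on either strand.
Orc1 (chr4:108579344-108579453, plus strand): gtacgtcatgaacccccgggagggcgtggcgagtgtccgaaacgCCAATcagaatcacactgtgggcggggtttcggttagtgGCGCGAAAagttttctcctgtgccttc
Mcm6 (chr1:128359706-128359815, minus strand): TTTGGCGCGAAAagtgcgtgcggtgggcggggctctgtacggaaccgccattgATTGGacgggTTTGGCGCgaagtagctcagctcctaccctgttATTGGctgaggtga
Ube2c (chr2:164769819-164769928, plus strand): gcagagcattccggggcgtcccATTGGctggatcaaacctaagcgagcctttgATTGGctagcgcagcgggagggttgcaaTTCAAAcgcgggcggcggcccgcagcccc
Cdk1 (chr10:69352913-69353022, minus strand): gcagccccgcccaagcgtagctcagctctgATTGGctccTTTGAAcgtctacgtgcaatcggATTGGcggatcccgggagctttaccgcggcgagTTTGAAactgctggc
The first run of capitals in Mcm6 holds 2 overlapping E2F matches, 1 on each strand. E2F forms were found in 9 of the 26 S-phase promoters (34.6%), in 1 of the 25 mitosis promoters (4.0%) and in 2.0% of the 27025 promoters of the table. CHR elements were found in 11.5%, 28.0% and 16.3% of them, and CCAAT boxes in 69.2%, 80.0% and 34.5%. A CHR and a CCAAT box stood together in 11.5% of the S-phase promoters, 28.0% of the mitosis promoters and 5.7% of all. A match is a match of letters and not a shown binding site.

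Mcm2, a subunit of the replicative helicase, was at 220.1, 250 and 226.7 CPM at E12.5 and at 30.8, 38, 36.4 and 39.5 CPM at E18.5. That is 6.42-fold lower (log2 fold change -2.68 ± 0.09, edgeR adjusted p = 1.3e-08). Mcm5 of the same complex was 5.01-fold lower, Mcm6 3.68-fold lower and Pcna, the sliding clamp of the polymerase, 3.21-fold lower. Mki67, the proliferation antigen Ki-67, was at 399.1, 391.8 and 364.7 CPM and then at 53.3, 81.1, 62.8 and 66.6 CPM, so that every E12.5 library was above every E18.5 library by more than 4-fold. Ccnb1, the mitotic cyclin B1, was 6.34-fold lower, and Ube2c and Cdk1 were 7.05-fold and 4.69-fold lower. Transcripts of these genes were still measured at E18.5, at a summed 626 to 731 TPM for the S-phase list and 493 to 647 TPM for the mitosis list, against 2560 to 2964 and 2974 to 3448 TPM at E12.5.

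Radial glial genes split. Of 24 tested, 16 fell, each at least 2-fold, 7 rose, and 3 of the 7 rose at least 2-fold. Pax6, the homeobox regulator of cortical radial glia, was at 114.3, 119.1 and 117.3 CPM at E12.5 and at 21.2, 25.4, 23.4 and 26.2 CPM at E18.5 (4.86-fold lower, log2 fold change -2.28 ± 0.08, edgeR adjusted p = 1.3e-08). Its 3 E12.5 values lay within 5 CPM of each other. Sox2 of neural stem cells, Hes5, a Notch effector, and Sox3, which had the largest fall in the list, were 3.06-fold, 3.6-fold and 10.8-fold lower. The 3 that rose at least 2-fold are also known in later glia: Tnc, an extracellular matrix glycoprotein, went from 34 ± 16.5 CPM (SD, n = 3) to 234.1 ± 29.9 CPM (n = 4), Mfge8, a secreted glycoprotein, was 2.85-fold higher, and Slc1a3, the glutamate transporter GLAST, 2.41-fold higher. The list sum was 4380 to 4471 TPM at E12.5 and 3407 to 3502 TPM at E18.5, and the list median was -1.65.

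Proneural and intermediate progenitor genes fell in 17 of 18 cases, 14 of them at least 2-fold, with a median of -2.07. Eomes, the T-box marker of cortical intermediate progenitors, was at 144.3, 135.4 and 145.4 CPM and then at 44.1, 53.3, 45.5 and 47.2 CPM (2.98-fold lower, edgeR adjusted p = 4.9e-08). Neurog2, the proneural factor of the dorsal telencephalon, was 7.73-fold lower, and Neurog1, its relative, 166.1-fold lower. Insm1, a zinc finger factor of newborn neurons and basal progenitors, was 1.78-fold lower. Neurod1, which acts after Neurog2, was the one that rose (1.25-fold), and that call was lost with the counts thinned to the depth of E12.5 library 9.

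Oncofetal genes fell as well. All 14 of 14 heterochronic and oncofetal genes fell at least 2-fold, with a median of -2.24. Lin28a, an RNA-binding protein that blocks let-7 maturation, was low at both stages, at 1.35, 1.48 and 1.17 CPM and then at 0.017, 0.05, 0.054 and 0.018 CPM, and did not overlap. Its relative Lin28b was at 15.1, 15.7 and 9.96 CPM and then at 4.29, 5.88, 4.19 and 5.23 CPM. Hmga2, a chromatin protein under let-7 control, was at 84.8, 126.9 and 79.5 CPM at E12.5 and at 0.943, 1.24, 1.2 and 1.08 CPM at E18.5, and Hmga1 fell less, 2.26-fold.

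Among imprinted growth regulators, 10 of 16 fell, 7 at least 2-fold, and 3 rose. Igf2, the fetal insulin-like growth factor, was at 548.4, 417.3 and 156.2 CPM and then at 352.3, 365.4, 333.5 and 579.3 CPM, and H19, the noncoding RNA of the same locus, at 653.2, 536.3 and 174.7 CPM and then at 176, 228.7, 199.6 and 285.1 CPM. Both were lowest in E12.5 library 9, the stages overlapped, and neither was called (edgeR adjusted p = 0.85 and 0.097). H19 was called without library 9 (log2 fold change -1.42). Meningeal and vascular cells are known sources of Igf2. The summed meningeal list was also lower in library 9 (300.4 TPM) than in libraries 4 and 7 (974 and 736 TPM), while the endothelium and pericyte sum was not (327 TPM against 333 and 312 TPM). Their part was not tested. Dlk1, a Notch ligand relative, was 12.7-fold lower, while Meg3, a noncoding RNA of the Dlk1 locus, was 2.79-fold higher (log2 fold change 1.47 ± 0.30).

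Of 7 nuclear factor I and SoxC genes, 2 rose and 2 fell, with a median of 0.00. These counts are near the 30.7% and 30.6% of all genes, so the list does not stand out from them. Nfia was at 113.8, 105 and 113.2 CPM and then at 80.7, 96.5, 99.4 and 80 CPM, 1.24-fold lower, and Nfib 1.38-fold higher, a call lost when the trend with transcript length was removed. Nfix, of the same family, went from 194.9 ± 24 CPM (SD, n = 3) to 747.5 ± 24.7 CPM (n = 4) (log2 fold change 1.94 ± 0.09, edgeR adjusted p = 4.2e-08). Members of the family differed in direction.

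Neuronal genes rose. Of 24 cytoskeletal genes 22 rose, 9 at least 2-fold, and 0 fell, with a median of 0.92. Dcx, doublecortin of migrating neurons, was at 858.5, 644.1 and 844.5 CPM and then at 1516, 1744, 1457 and 1435 CPM (1.97-fold higher, edgeR adjusted p = 2.6e-05). Tubb3, the neuronal tubulin, and Nefl, the neurofilament light chain, were 1.65-fold and 1.87-fold higher. Mapt, the axonal protein tau, had the largest rise (4.87-fold, log2 fold change 2.28 ± 0.14), while the intermediate filament Ina was at 399.3 to 583.8 CPM and then at 458.6 to 479.8 CPM and was not called. The list sum was 20588 to 24355 TPM at E12.5 and 41350 to 43240 TPM at E18.5.

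Upper-layer genes rose in 12 of 15 cases, 9 at least 2-fold, and deep-layer genes in 15 of 16, 6 at least 2-fold. The medians were 1.58 and 0.82. Cux2, an upper-layer homeobox gene, was at 61.4, 46 and 55.8 CPM at E12.5 and at 120.3, 119.6, 116.6 and 103.2 CPM at E18.5, 2.11-fold higher (log2 fold change 1.08 ± 0.10, edgeR adjusted p = 6e-06). Its relative Cux1 was 1.34-fold lower, a call lost under 2 of 20 alternatives. Bcl11b, the regulator of subcerebral projection neurons, was at 162.7, 152.2 and 170.8 CPM and then at 303.1, 335.3, 257.3 and 286.5 CPM, 1.83-fold higher. Tbr1, the T-box factor of early-born corticothalamic neurons, and Fezf2, which specifies subcerebral neurons, differed by much less: Fezf2 was 1.17-fold higher (call lost in thinned counts), and Tbr1, at 169.6, 158.3 and 198.2 CPM and then at 190.2, 246.5, 204.1 and 220.6 CPM, overlapped between stages and lost its call under 8 of 20 alternatives. Hs3st4, a heparan sulfate sulfotransferase used as a layer VI marker, rose most of the deep-layer list (8.16-fold), and Foxp2, the forkhead factor of layer VI, was not called (log2 fold change -0.21 ± 0.12).

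**Figure D4:**
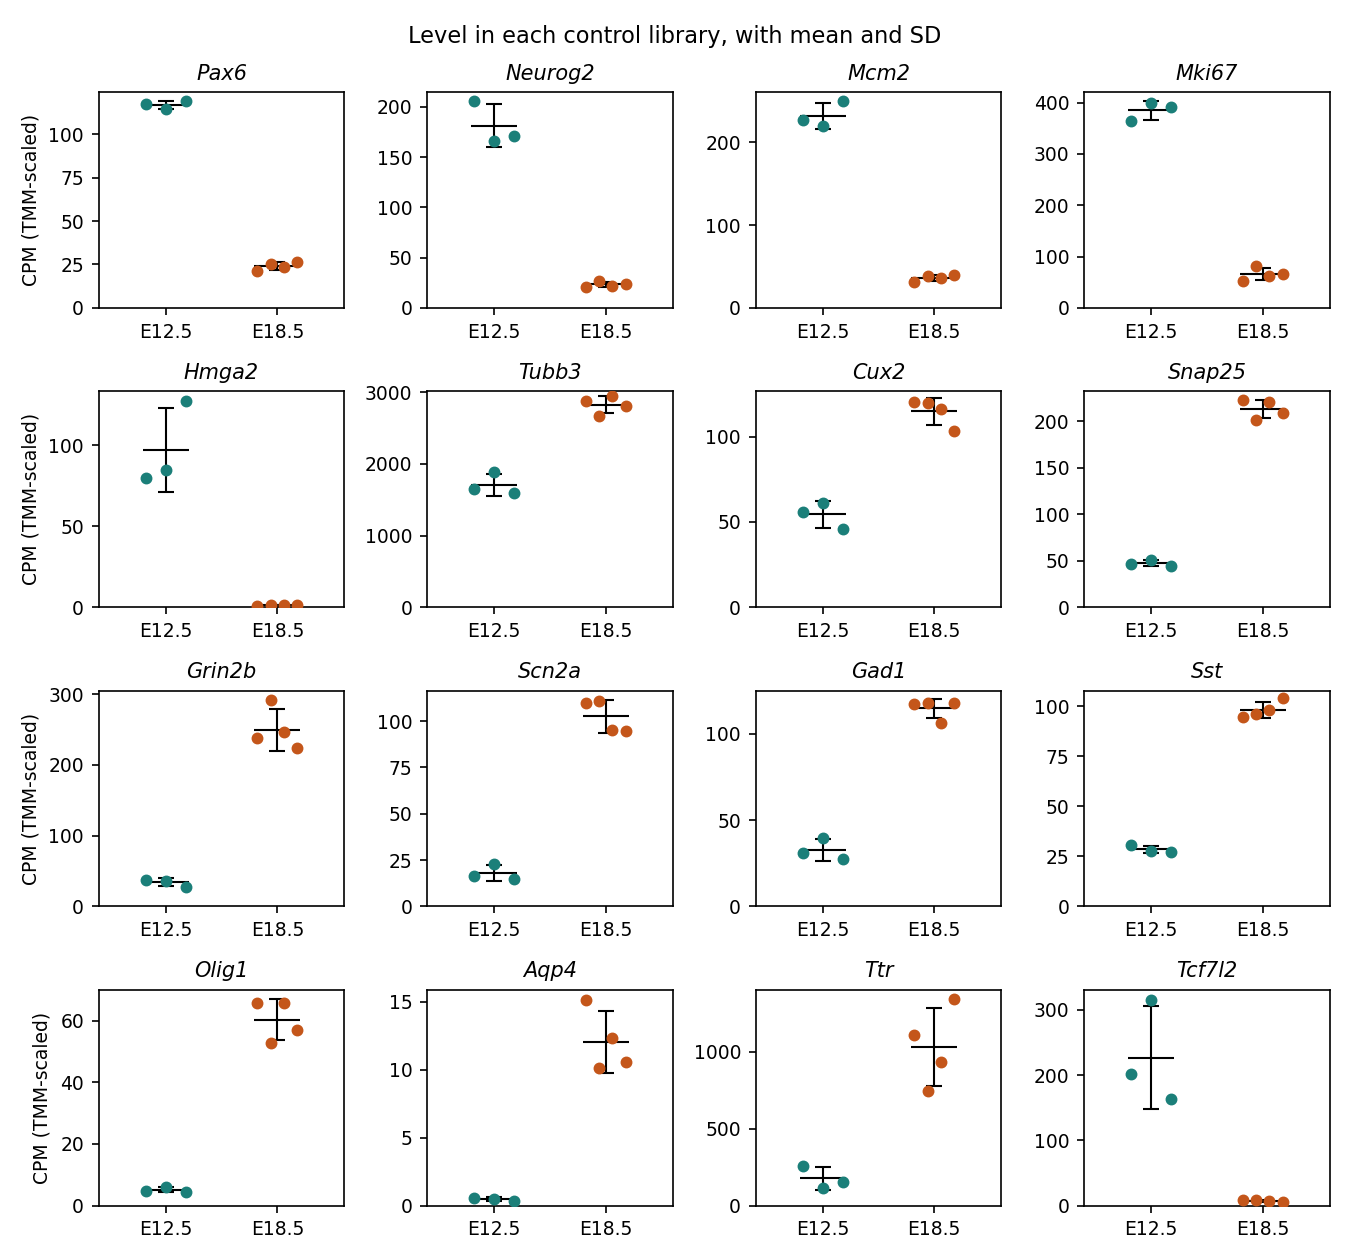
Level in CPM of 16 genes in each of the 3 E12.5 (teal) and 4 E18.5 (orange) control libraries, each panel from 0 on its own scale, with the mean and SD in black. In every panel the stages do not overlap, with Pax6, Neurog2, Mcm2, Mki67, Hmga2 and Tcf7l2 lower at E18.5 and the other 10 higher.

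The earliest cortical neurons gave mixed counts. Of 8 subplate genes tested, 3 rose and 3 fell, which is near the 30.7% and 30.6% of all genes. Cplx3, a complexin of subplate cells, was too low to be tested, at 0.06 CPM or less at E12.5 and at 0.387, 0.162, 0.199 and 0.165 CPM at E18.5. Nr4a2, a nuclear receptor of the subplate, was 2.58-fold higher, Kcnab1, a potassium channel subunit, 8.4-fold higher, and Nxph4, a neurexophilin, 2.58-fold lower. Of 10 Cajal-Retzius genes, 5 rose and 5 fell. Reln, the secreted guidance protein of these cells, was at 130.5, 117.2 and 149.5 CPM and then at 249.3, 296.5, 253.7 and 252 CPM (1.99-fold higher, edgeR adjusted p = 7.4e-06). Trp73, the p53 relative of these cells, was at 20.7, 25 and 24.6 CPM and then at 18.4, 19.9, 19.1 and 20.8 CPM, and its call was lost under 16 of 20 alternatives. Lhx5 and Lhx1 were 5.31-fold and 13.4-fold lower. Both are also diencephalic genes, and Lhx1, like Tcf7l2, was highest in E12.5 library 4 (43.2, 18.7 and 20.3 CPM at E12.5). Ndnf, a secreted factor, and Car10 were 3.07-fold and 2.56-fold higher, and Reln and Ndnf are known in later interneurons as well.

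Synaptic genes rose nearly throughout. On the presynaptic side, 23 of 24 rose, 21 at least 2-fold against 15.2% of all genes, with a median of 1.61. Syt1, the calcium sensor of vesicle release, was at 102.1, 83.7 and 102.3 CPM at E12.5 and at 299.6, 294.6, 294.9 and 268.1 CPM at E18.5 (3.01-fold higher, edgeR adjusted p = 1.2e-07). Snap25, a SNARE protein, and Cplx1, a complexin with the largest rise in the list, were 4.52-fold and 5.71-fold higher. The 2 vesicular glutamate transporters named differed in direction. Slc17a7 (VGLUT1), typical of mature cortical neurons, went from 21.6 ± 3.13 CPM (SD, n = 3) to 82.2 ± 4.65 CPM (n = 4), while Slc17a6 (VGLUT2), which is also abundant in the diencephalon, went from 65.8 ± 6.5 CPM (SD, n = 3) to 47.2 ± 5.5 CPM (n = 4) and was the 1 member that fell.

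On the postsynaptic side all 24 of 24 rose, 19 at least 2-fold, with a median of 1.71. Grin2b, the NMDA receptor subunit of the embryonic brain, was at 36.6, 27.7 and 37.9 CPM and then at 237.6, 292, 246 and 223.6 CPM (7.33-fold higher, edgeR adjusted p = 5.9e-08). The AMPA receptor subunit Gria2 was 5.34-fold higher, and the scaffold Dlg4 (PSD-95) 1.89-fold. Nrgn, a calmodulin-binding protein of dendritic spines, rose most (24-fold), from 2.98, 2.39 and 3.71 CPM to 79.7, 61.7, 80.3 and 68.7 CPM. Nlgn2, the neuroligin of inhibitory synapses, rose least (1.38-fold).

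Voltage-gated channels rose in 24 of 25 cases, 20 at least 2-fold, with a median of 1.36. Scn2a, the sodium channel of young axons, was at 23, 14.7 and 16.2 CPM and then at 109.9, 110.8, 95.2 and 94.8 CPM (5.71-fold higher, edgeR adjusted p = 1e-06), and Scn3a, the fetal sodium channel, was 1.69-fold higher. The log2 ratio of Scn2a to Scn3a in TPM, with 0.1 added to each value as in all such ratios here, went from -1.77 ± 0.04 (SD, n = 3) to -0.32 ± 0.19 (n = 4), so that Scn3a was still the higher of the pair in each library. Cacna1g, a T-type calcium channel that is also strong in the thalamus, was not called, at 102.1, 73.2 and 53.3 CPM and then at 67.6, 62, 65.2 and 62.4 CPM, except without E12.5 library 9 (log2 fold change -0.45).

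GABA-A receptor subunits all rose at least 2-fold, and so did Slc12a5, so that 13 of 14 members of that list rose, with a median of 1.99. Slc12a5 (KCC2), the chloride exporter of mature neurons, was at 34.2, 19.4 and 18.9 CPM and then at 85.9, 88.8, 73.1 and 79.1 CPM (3.38-fold higher, edgeR adjusted p = 0.00025). Slc12a2 (NKCC1), the chloride importer, was at 56.9, 66.1 and 66 CPM and then at 56.6, 58.2, 47.3 and 55.7 CPM and was not called (edgeR adjusted p = 0.069). In TPM the log2 ratio of the exporter to the importer was -0.32, -1.45 and -1.67 in the E12.5 libraries and 0.90, 0.92, 0.99 and 0.78 in the E18.5 libraries. It was below 0 in all of the former, least so in library 4, and above 0 in all of the latter. Gabra2 was 3.96-fold higher, and Gabrd, at 0 to 0.195 CPM at E12.5, had a mean 34.9-fold higher at E18.5 that rests on few E12.5 counts (log2 fold change 6.13, 5.08 without E12.5 library 4 and 7.51 without library 7).

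**Figure D5:**
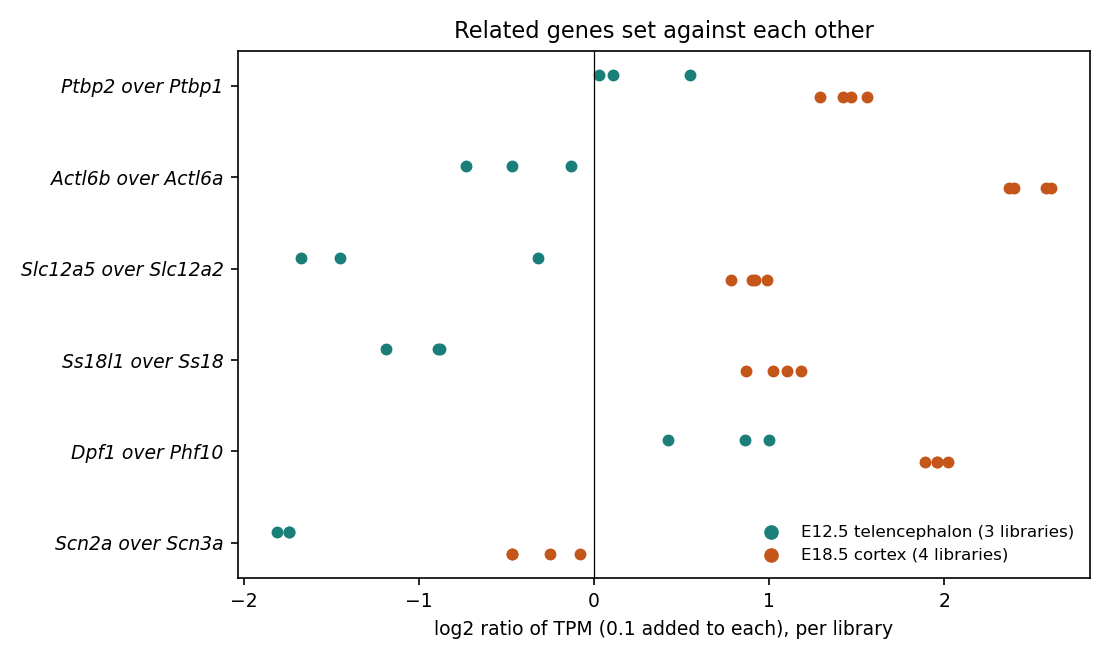
Log2 ratio of TPM, with 0.1 added to each value, for 6 pairs of related genes in each control library (E12.5 teal, E18.5 orange). In each pair every E18.5 library lies to the right of every E12.5 library, and the ratios of Actl6b to Actl6a, Slc12a5 to Slc12a2 and Ss18l1 to Ss18 change sign.

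Genes of GABAergic neurons split. Of 20 genes of GABA synthesis and interneurons, 11 rose and 7 fell. Gad1, which makes GABA, was at 39.7, 27.5 and 30.8 CPM and then at 117.2, 117.8, 106.2 and 117.7 CPM, 3.51-fold higher (edgeR adjusted p = 5.1e-07). Sst, the somatostatin neuropeptide, was 3.45-fold higher, Npy, neuropeptide Y, 10.1-fold higher, and Lhx6, the factor of interneurons from the medial ganglionic eminence, 1.8-fold higher. Dlx2, a homeobox gene of their progenitors, and Sox6 fell 2.24-fold and 2.15-fold. Ventral progenitor genes fell in 11 of 12 cases, 10 at least 2-fold: Nkx2-1 of the medial eminence was at 53.8, 45.2 and 59.2 CPM and then at 8.27, 9.83, 7.54 and 8.3 CPM, and Gsx2 and the morphogen Shh were 4.65-fold and 9.99-fold lower. Olig2 was not called (28.7 to 36.5 CPM and then 27.2 to 29.8 CPM). A dissection of cortex alone leaves out the ventral telencephalon, so region and stage cannot be told apart for these genes.

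Genes of striatal projection neurons rose in most cases, 10 of 13, 9 of them at least 2-fold, with summed levels of 294 to 329 TPM at E12.5 and 607 to 703 TPM at E18.5. Ppp1r1b (DARPP-32), the phosphatase inhibitor of these neurons, was at 6.28, 5.16 and 7.42 CPM and then at 74.2, 54.7, 62.7 and 57.1 CPM (9.9-fold higher, edgeR adjusted p = 3.5e-08). Drd1, a dopamine receptor, was 10.6-fold higher and Zfp503, a zinc finger gene of striatal precursors, 1.94-fold lower. Penk, the enkephalin precursor, was at 15.2, 13.7 and 1.56 CPM at E12.5, with library 9 far below the others, and at 26.3, 18.4, 22.2 and 18.4 CPM at E18.5, and was not called, except without library 9 (log2 fold change 0.56). Several of these genes are also expressed in cortical neurons.

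Patterning genes fell. Of 19 genes of cortical patterning and the cortical hem, 15 fell, 13 at least 2-fold, and 0 rose. Emx1, the homeobox gene of dorsal progenitors, was at 57.3, 61.3 and 62.7 CPM and then at 24.6, 25.6, 27.5 and 25.3 CPM (2.35-fold lower, edgeR adjusted p = 1.4e-07), and Emx2 3.35-fold lower. Fgf17, a rostral signal, was at 5.45, 7.49 and 7.42 CPM and then at 0.034, 0.112, 0.199 and 0.494 CPM (log2 fold change -5.03, -5.84 without E18.5 library 18). Bmp7, a dorsal midline and meningeal ligand, was not called, at 23.6 to 31.2 CPM and then at 32.8, 32.2, 32.8 and 46.6 CPM, with E18.5 library 18 the highest.

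Axon guidance genes went both ways, with 17 of 29 rising (7 at least 2-fold) and 9 falling (4 at least 2-fold). The receptor Robo1 was at 202.2, 158.2 and 182.1 CPM and then at 251.5, 274, 228.1 and 250.1 CPM, 1.39-fold higher (edgeR adjusted p = 0.0013), while one of its ligands, Slit2, was 2.59-fold lower. Dcc, the netrin receptor, was 2.23-fold lower. Of the semaphorins named, Sema3a was 1.66-fold higher and the membrane-anchored Sema7a 3.74-fold higher. The ephrins Efna5 and Efnb1 were 2.42-fold and 2.85-fold lower.

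Astrocyte genes rose in 16 of 20 cases, 13 at least 2-fold, with a median of 1.42. Aldh1l1, a folate enzyme of astrocytes, was at 10.6, 3.68 and 7.22 CPM and then at 50.7, 50.6, 57.5 and 48.9 CPM, 7.24-fold higher (log2 fold change 2.85 ± 0.36, 3.58 without E12.5 library 4). Aqp4, the water channel of astrocyte endfeet, was 24.5-fold higher at 10.1 to 15.1 CPM, and Gfap 283.6-fold. The glutamate transporter Slc1a2 was not called (93.8 to 124.6 CPM and then 95.2 to 109.8 CPM), and Fgfr3, a receptor of progenitors and astrocytes, was 4.4-fold lower. Of 12 tested genes of the oligodendrocyte lineage, 6 rose and 1 fell. Pdgfra, the receptor of oligodendrocyte precursors, was at 48.3, 47.4 and 20.9 CPM and then at 68, 70.2, 60.7 and 69.6 CPM, a call lost under 8 of 20 alternatives. Sox10 and Olig1, transcription factors of this lineage, were 5.35-fold and 11.8-fold higher. Nkx2-2, which also marks the diencephalic midline, was 6.38-fold lower. The myelin genes Mbp, Cnp and Mag were not called, and Mog and Enpp6 were too low to be tested.

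Microglial and complement genes rose in 15 of 20 cases, 6 at least 2-fold, and the list sum was 136 to 175 TPM at E12.5 and 238 to 313 TPM at E18.5. With counts thinned to the shallowest library, 7 rose. P2ry12, a purinergic receptor of microglia, was at 2.95, 2.35 and 3.9 CPM and then at 4.93, 5.34, 4.93 and 5.08 CPM (edgeR adjusted p = 0.0038, call lost in thinned counts), Csf1r, their survival receptor, 1.47-fold higher, and C1qa, a complement subunit, 2.25-fold higher. Tmem119 was the 1 that fell, and the stages overlapped for it (15.2, 11 and 3.12 CPM and then 4.46, 4.35, 4.28 and 5.78 CPM, call lost under 10 of 20 alternatives).

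In the vasculature, 12 of 22 genes rose and 4 fell. Cldn5, the tight junction protein of brain endothelium, was at 20.2, 17.7 and 24.6 CPM and then at 57, 47.5, 48.8 and 73 CPM, 2.72-fold higher (edgeR adjusted p = 6.6e-05). Pecam1, a general endothelial marker, was 1.37-fold lower, a call lost without E12.5 library 4 or E18.5 library 17. Mfsd2a, a lipid transporter of the blood-brain barrier, was 1.41-fold higher. Plvap, of fenestrated and immature vessels, was 3.86-fold lower, and Ly6c1 was 36.6-fold higher, from few counts at 0 to 0.193 CPM (log2 fold change 4.74, 5.76 without E12.5 library 7). Without E18.5 library 18, 7 vascular genes fell.

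The surrounding tissues differed between libraries. Of 12 meningeal genes 3 rose and 3 fell, and their sum was 300 to 974 TPM at E12.5 and 269 to 490 TPM at E18.5. Col1a1, a fibrillar collagen, was at 675.9, 345.3 and 61.5 CPM and then at 68.3, 231.3, 78.5 and 129.8 CPM and was not called, with library 4 highest and library 9 lowest at E12.5. It was called, as a fall, without library 9. The small proteoglycan Dcn was 1.66-fold higher, Foxc1, a meningeal forkhead factor, was not called, and Crabp2, a retinoic acid binding protein, was 6.6-fold lower. Slc6a13, a GABA and taurine transporter, and Aldh1a2, which makes retinoic acid, were 10.3-fold and 4.77-fold higher. Choroid plexus genes rose in 9 of 13 cases, and their sum was 322 to 603 TPM at E12.5 and 1524 to 2645 TPM at E18.5. Ttr, the thyroxine carrier of the choroid plexus, was at 113, 156.9 and 259.6 CPM and then at 1106, 744.7, 931.6 and 1340 CPM (5.84-fold higher, edgeR adjusted p = 0.0011), Kl, the klotho protein, 3.51-fold higher and Aqp1, a water channel, 2.57-fold higher. In 1 fit of all 14 libraries 3 choroid genes rose, and Ttr and Aqp1 lost their calls. Otx2, which the choroid plexus shares with the diencephalon and midbrain, was 6.36-fold lower.

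Globin transcripts were lower and differed in composition. The list sum was 12721 to 16712 TPM at E12.5 and 3649 to 6196 TPM at E18.5, and 10 of 11 tested genes fell at least 2-fold. The exception was Hbb-bs, an adult beta globin, at 405.4, 244.2 and 343.6 CPM and then at 324.4, 424.2, 381.8 and 585.1 CPM, which overlapped and was not called (edgeR adjusted p = 0.23). In TPM, the embryonic Hbb-y was above Hbb-bs in every E12.5 library and at 0.69 TPM or less in every E18.5 library, where Hbb-bs was at 1346 to 2432 TPM. Adult globin copies (Hbb-bs with Hbb-bt, and Hba-a1 with Hba-a2) are nearly identical, so counts within each pair are uncertain. Globin RNA is known from red blood cells, which can stay in dissected tissue. With globin, mitochondrial, chromosome Y and Xist genes removed, 5627 genes rose and 5597 fell.

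Pairs of related RNA-binding and chromatin genes shifted toward the member known in neurons. Of 20 splicing and RNA-binding genes, 11 rose and 6 fell. Ptbp1, the splicing repressor of non-neuronal cells, was at 299.4, 334.4 and 262.8 CPM and then at 84.1, 91.1, 87.1 and 104.7 CPM, 3.26-fold lower (edgeR adjusted p = 1.6e-07). Its neuronal relative Ptbp2 was also lower, 1.38-fold, so the log2 ratio of Ptbp2 to Ptbp1 in TPM went from 0.23 ± 0.28 (SD, n = 3) to 1.44 ± 0.11 (n = 4) while both fell. Rbfox1, a splicing factor of mature neurons, was 6.06-fold higher. Of 21 chromatin genes, 12 fell and 5 rose. Ezh2, the methyltransferase of Polycomb complex PRC2, was at 235.5, 266.3 and 233.1 CPM and then at 79.2, 91.6, 85.9 and 91.1 CPM (2.82-fold lower, edgeR adjusted p = 7.8e-08), and its relative Ezh1 was 2.31-fold higher.

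The BAF chromatin remodeller is known to exchange subunits when progenitors become neurons. Actl6a of the progenitor complex was 3.52-fold lower and Actl6b of the neuronal complex 2.35-fold higher. Their log2 ratio, Actl6b over Actl6a in TPM, was -0.13, -0.73 and -0.47 at E12.5 and 2.61, 2.37, 2.58 and 2.40 at E18.5. The ratio of Ss18l1 (CREST) to Ss18 went from -0.99 ± 0.18 (SD, n = 3) to 1.04 ± 0.13 (n = 4), and that of Dpf1 to Phf10 from 0.76 ± 0.30 (SD, n = 3) to 1.96 ± 0.05 (n = 4). The groups did not overlap for any of the 3 ratios, and Dpf1 was already the higher of its pair at E12.5. The ATPase Smarca2 was 2.68-fold higher.

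Immediate-early genes rose in 8 of 12 cases, 7 at least 2-fold, and 2 fell. The list sum did not rise with them, at 87.4 to 111.6 TPM at E12.5 and 74.0 to 92.2 TPM at E18.5. Fos was at 0.863, 0.809 and 0.586 CPM and then at 2.27, 2.41, 1.78 and 2.56 CPM (3.0-fold higher, edgeR adjusted p = 0.00033), a call lost in thinned counts, where 5 of the list rose. Egr1 and Egr3, zinc finger factors induced by activity, were 3.74-fold and 5.9-fold higher. Arc, the activity-regulated synaptic protein, was not called, at 4.29 to 5.55 CPM and then at 4.86 to 6.27 CPM, and Ier2 was 2.88-fold lower. All named members were under 30 CPM at both stages.

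Of 21 cholesterol synthesis genes 13 rose and 1 fell, none 2-fold. Hmgcs1, the synthase that makes HMG-CoA, was at 529.7, 501.6 and 515 CPM and then at 933.4, 887, 863.5 and 797.6 CPM (1.69-fold higher, edgeR adjusted p = 5e-06), and Mvd, a later enzyme of the pathway, was 1.89-fold higher. Glycolytic genes fell in 13 of 20 cases and rose in 5, and isozymes parted: Hk1 was at 96.3, 78.8 and 67.5 CPM and then at 264.4, 264, 252.2 and 235.3 CPM, 3.14-fold higher, while Hk2 was 4.09-fold lower. Pfkp, the platelet-type phosphofructokinase, was 6.23-fold higher, Pkm 2.11-fold lower, and Ldha lower by 1.31-fold with overlapping stages and a call lost under 3 of 20 alternatives.

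Ribosomal protein genes fell in 46 of 77 cases, none 2-fold, with a median of -0.29 and none rising. Rplp0 was at 1318, 1496 and 1259 CPM and then at 1135, 1076, 1307 and 1152 CPM (1.16-fold lower, edgeR adjusted p = 0.046), a call lost under 12 of 20 alternatives, and Rps6 was 1.44-fold lower. The count of falls was 23 without E12.5 library 7 and 27 without E18.5 library 7 or 18. Of 50 nuclear genes of oxidative phosphorylation, 11 rose and 3 fell, a smaller share than the 30.7% and 30.6% of all genes. Cox7a2 was at 69, 95.9 and 83.8 CPM and then at 98.8, 93.9, 113 and 98 CPM, a call lost under 7 of 20 alternatives, and Cox6a1, another subunit of cytochrome oxidase, was 1.3-fold higher. The rises numbered 6 without E18.5 library 17 and 7 without E12.5 library 4 or E18.5 library 18.

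Of the p53 targets and Trp53 itself, 4 of 16 rose and 6 fell, with a median of 0.02. Cdkn1a, the p21 cell cycle inhibitor, was at 18.1, 20.2 and 16.8 CPM and then at 22.2, 21.4, 21.9 and 22.8 CPM, a difference of 1.2-fold whose call was lost under 5 of 20 alternatives. Mdm2, the ubiquitin ligase of p53, was 1.33-fold lower, and the floxed gene Trp53 went from 119.3 ± 17.1 CPM (SD, n = 3) to 73.1 ± 2.46 CPM (n = 4) (edgeR adjusted p = 4.1e-05). Plk2, a kinase also induced by neuronal activity, was 2.71-fold higher, and Pmaip1 (Noxa) 2.07-fold lower at 1.01 to 1.78 CPM at E18.5, a call lost in thinned counts. Sbno1, which stood in the chromatin list, fell with a log2 fold change of -0.52 ± 0.07 (edgeR adjusted p = 0.00011).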

How the data were processed

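The files hold RSEM estimates for polyadenylated RNA, 1 table per stage. The tools named are Trim Galore, STAR, RSEM and DESeq2, per the submitters' processing notes. The genome build, annotation and strand setting are not given in the sources used here. The authors deposited expected counts and TPM for 56941 gene IDs.

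Columns were assigned to groups by their genotype mark. The sample descriptions of 11 of 14 samples name a library of another group than the sample's title, so columns were not tied to single samples and libraries carry their column numbers. The members and gene lists were chosen with earlier results of these data known. Of 756 listed symbols, 755 matched (7 through an older name). Named are the first 3 symbols and the extremes of each list, up to 3 members against their list's main direction, and the 12 most raised and 12 most lowered genes that averaged 10 CPM or more in their higher stage; some of them are not reported here.

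Expected counts were rounded, filtered with filterByExpr, TMM-scaled and tested in the 7 control libraries with edgeR 4.0.16 (robust quasi-likelihood F test) in R 4.3.3, with Benjamini-Hochberg adjustment over the 18307 genes tested. The procedure was tested on counts simulated from these libraries. It called 66.7% of 99 genes changed 2-fold and 46.3% of 95 genes changed 1.5-fold, with 7 false calls. A gene that was not called is therefore not shown to be unchanged. Far fewer genes were changed in the simulation than were called in the data. Alternatives included limma 3.58.1 and DESeq2 1.42.0, other scalings and filters, thinning, and leaving out each library. With totals, in units of 1000000, of 4.92 in E12.5 library 9 and 51.4 to 82.0 in the others, library 9 limits the precision of low genes, and intervals of counting error alone do not cover library differences. In GENCODE M21, over 20% of the exon bases of Gbx2, Hes5, Igf2, Nefl, Ptbp1, Shh and Ube2c overlap another gene, so their counts depend on the strand setting. Near-identical copies (globins, Ly6c1, ribosomal proteins) are likewise uncertain. Protein sequences were not used here.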

Additional observations from a re-analysis of the deposited data

Results flagged for a closer look

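In 12 of the 193 named genes, 1 of the 4 E18.5 libraries stood apart from the other 3 by Dixon's ratio at the 95% level. Chance flags about 1 in 20 groups. Library 18 was that library for 7 genes, libraries 8 and 17 for 2 each and library 7 for 1.

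In library 18, Igf2 was at 579 CPM against 334 to 365 in the others, Dcn at 60.4 against 42.3 to 44.1, Foxc1 at 17.5 against 12.1 to 12.7 and Bmp7 at 46.6 against 32.2 to 32.8. Col1a1 of the meningeal list was not highest there (129.8 CPM against 231.3 in library 8). The summed meningeal list was highest there (490.2 TPM against 268.8 to 428.4), and so were the endothelial and choroid plexus sums (577.6 and 2645 TPM). Their part in these values was not tested. The microglial gene Tmem119 was high as well, at 5.78 CPM against 4.28 to 4.46. The vesicle gene Syt1, at 268 CPM against 295 to 300, and the oligodendrocyte factor Sox10, at 7.43 against 8.44 to 8.61, were low in library 18.

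In library 8, Reln was at 296 CPM against 249 to 254. The embryonic globin Hbb-bh1 was at 0.0249 CPM there, from 2 counts, against 0 in the other 3. That is below the 0.0366 CPM that 3 counts are worth in library 8. With the other 3 at 0, Dixon's ratio flags any count, so this flag does not show a library difference. In library 17, Gad1 was at 106 CPM against 117 to 118, and Rpl3 at 788 CPM against 705 to 718. In library 7 the subplate gene Cplx3 was at 0.387 CPM against 0.162 to 0.199.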

How the results depend on the processing

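The counts of genes that rose, fell, or did either at least 2-fold stayed within 1.5 times their values under all alternatives run but 1: with log2(TPM + 1) and limma, 1209 genes fell at least 2-fold against 1999 (1547 with log2(TPM + 0.1)), and the cause was not tested. Leaving out each library in turn gave 5113 to 5833 genes higher, 4778 to 5982 lower, 2576 to 2937 at least 2-fold higher and 1788 to 2160 at least 2-fold lower. Tested against a 1.5-fold change, 3030 were higher and 2267 lower. No direction reversed. Of 174 named genes that were called, 21 lost the call under some alternative, and 12 named genes that were not called gained one. Choroid plexus genes at least 2-fold higher numbered 5 with log2(TPM + 1) and 3 in 1 fit of all 14 libraries, against 8, and immediate-early genes 3 with log2(TPM + 1) against 7. For the choroid plexus counts in the fit of 14 libraries the cause was not tested. E12.5 library 9, the shallowest, limits genes under 1 CPM. No paired analysis was possible, because libraries of different stages cannot come from the same embryo. A number used at both stages does not mark a pair.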
